A study of Mus musculus with 13 samples.

Results

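Epicardial cells of the developing mouse heart were described from E12.5 to postnatal day 3 (P3). The epicardium is the sheet of mesothelial cells that covers the heart. Cells of this sheet can lose their epithelial contacts, enter the heart wall and give rise to fibroblasts and mural cells, the smooth muscle cells and pericytes around vessels. The epicardium also releases retinoic acid, growth factors and matrix proteins that act on the growing myocardium. Uroplakins 3b and 1b (Upk3b, Upk1b), the transcription factor Wt1 and keratin 19 (Krt19) are among the genes by which it is recognised.

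The hearts came from untreated wild-type C57Bl/6J mice, with no transgene or sort, and were measured by droplet-based single-cell RNA sequencing (10x Genomics), in which each cell barcode is counted by its UMIs, the unique tags that mark captured RNA molecules. E12.5, E14.5 and E16.5 had 2 libraries each. P3 had 2 sample records and a single matrix, whose barcodes carry 2 suffixes. No label ties a suffix to a record, so P3 was taken as 1 sample, which allows no test. The first E16.5 matrix joins 2 sample records and was taken as 1 library. Separate embryos are not named in the labels as the source of paired libraries, so p-values measure the spread between libraries, which may be technical.

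A barcode was taken as a cell from 2000 UMIs and 500 genes, which left 41586 heart cells. Of these, 14212 had less than 1000 CPM (counts per 1000000 UMIs of a cell or a sum of cells) of Tnnt2, the troponin T of cardiomyocytes. Epicardial cells were those of the 14212 with at least 3 UMIs of Upk3b, Upk1b and Wt1 together, of which at least 1 was of a uroplakin. This gave 829 epicardial cells, which were thus chosen by their measured UMIs of these genes. The other 13383 cells with low Tnnt2 served as the comparison cells. Because Upk3b, Upk1b, Wt1 and Tnnt2 chose the cells, these genes are given as descriptions, and so is every difference between epicardial and other cells of the same stage.

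Marker genes that the rule did not use were present in the cells so chosen. Krt19, a keratin of simple epithelia (mm10 chr11:100140810-100148665, minus strand), was at 158 and 150 CPM in the summed epicardial cells of the E12.5 libraries, 144 and 125 CPM at E14.5, 545 and 654 CPM at E16.5 and 573 CPM at P3. In the other low-Tnnt2 cells it was between 1.45 and 6.28 CPM in all 7 matrices. Cells with Tnnt2 from 1000 CPM held more Krt19 at the early stages, 54.0 and 46.5 CPM at E12.5 and 37.0 and 36.7 CPM at E14.5. There it was at 4.33 and 4.45 CPM at E16.5 and 1.10 CPM at P3. Lrrn4, a membrane protein of mesothelium, was at 166 and 179 CPM at E12.5, 185 and 216 CPM at E14.5, 301 and 280 CPM at E16.5 and 413 CPM at P3.

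Of the genes in the rule, Upk3b (chr5:136038496-136046487, plus strand) was at 859 and 847 CPM at E12.5, 740 and 660 CPM at E14.5, 859 and 1120 CPM at E16.5 and 1715 CPM at P3. Upk1b (chr16:38773184-38800328, minus strand) was at 125 and 124, 143 and 146, 268 and 319, and 412 CPM in the same order. Wt1 (chr2:105126529-105173616, plus strand) stayed between 168 and 222 CPM in every matrix and was detected in 86.1% to 92.1% of the epicardial cells of a matrix. In the other low-Tnnt2 cells, Wt1 was at 4.83 and 5.04 CPM at E12.5 and between 23.3 and 33.0 CPM from E14.5 on, and Upk1b was at no more than 0.253 CPM, a gap that the rule itself sets since it requires a uroplakin. In the cells with Tnnt2 from 1000 CPM, Wt1 was between 1.13 and 4.99 CPM and Upk1b at no more than 0.976 CPM.

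**Figure D1:**
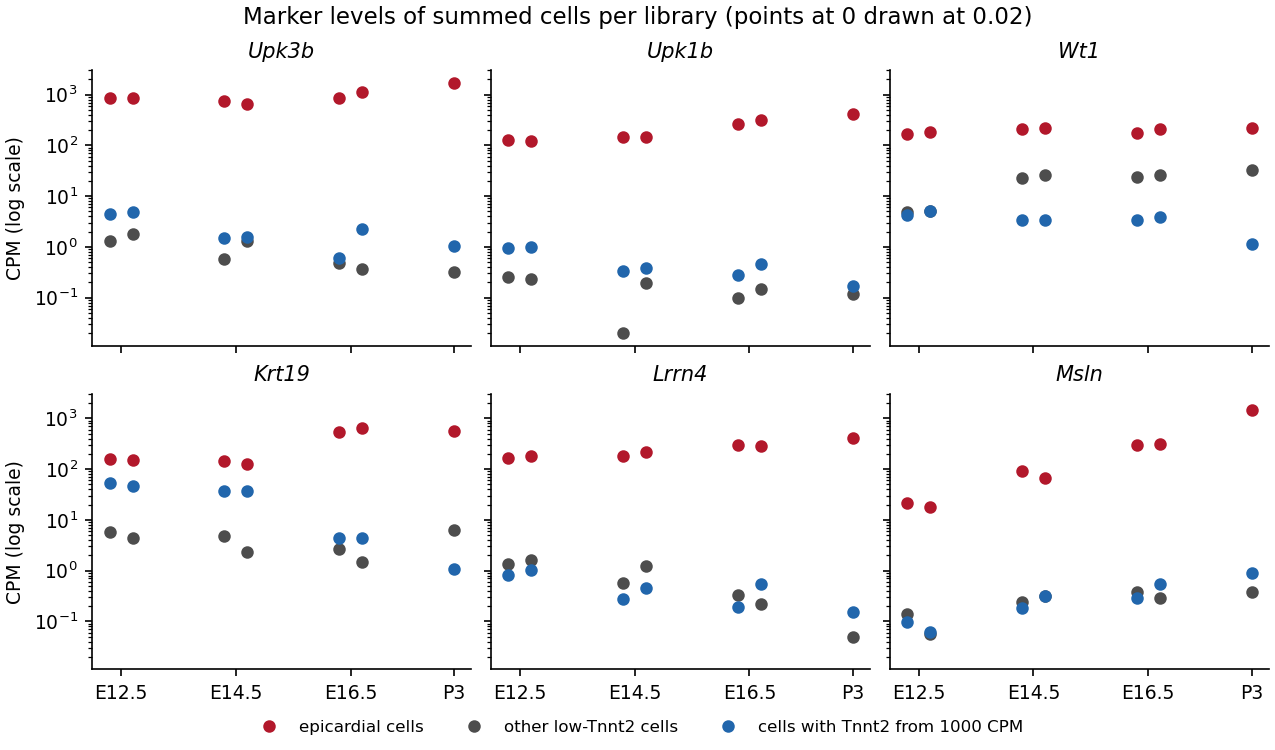
Level of 6 marker genes in the summed cells of each library (y axis, CPM on a log scale, with values of 0 drawn at 0.02; x axis, stage, with 1 point per library). Red points are epicardial cells, grey points other cells with low Tnnt2 and blue points cells with Tnnt2 from 1000 CPM. Epicardial Krt19 was between 125 and 158 CPM up to E14.5 and between 545 and 654 CPM from E16.5, and Msln was at 21.3 and 17.7 CPM at E12.5 and 1467 CPM at P3.

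At the border of the rule, the marker level fell off on both sides. The 40 cells with exactly 3 marker UMIs held 69.8 CPM of Krt19 and 50.1 CPM of Lrrn4, against 217 and 201 CPM in all 829 epicardial cells. The 43 cells left out with 2 marker UMIs, a uroplakin among them, held 38.1 CPM of Krt19 and 36.5 CPM of Lrrn4. In contrast, 464 cells with 3 or more Wt1 UMIs but no uroplakin held only 0.767 CPM of Lrrn4 and 289 CPM of Pecam1, an adhesion molecule of endothelial cells.

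Genes of the epicardial cells were ordered by how far they lay above the other low-Tnnt2 cells, as a description. Among 1540 genes at 50 CPM or more in the epicardial cells of all 7 matrices, a filter that used the epicardial level alone, 376 were above the other low-Tnnt2 cells in each matrix. Ordered by the smallest of the 7 folds, these were led by Krt7, a simple-epithelium keratin, at no less than 247-fold, followed by Bnc1, a zinc finger protein of mesothelium (163-fold), Tm4sf5 (134-fold), the Wnt enhancer Rspo1 (121-fold) and Lrrn4 (113-fold). Apela, a peptide ligand of the apelin receptor, was at least 103-fold above the other cells in every matrix. Further down came the basement membrane protein Fras1 (60.5-fold), Tmem151a (56.5-fold), Krt18 (36.8-fold), the kinase Stk26 (35.3-fold), Krt19 (27.6-fold) and ezrin, which links actin to the apical membrane (Ezr, 20.02-fold). The transcription factor Myrf (17.6-fold), podoplanin (Pdpn, 15.4-fold), the prostaglandin-degrading enzyme Hpgd (12.8-fold), Smim1 (12.3-fold), Capn6 (10.2-fold), the guidance factor Sema3d (9.53-fold), Rpp25 (9.50-fold) and 1190002N15Rik (8.81-fold) completed the leading 20. Where the other cells of a matrix held fewer than 3 UMIs of a gene, the fold was computed against a floor of 3 counts.

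Epicardial cells made up a smaller share of the low-Tnnt2 cells at each later stage. They were 9.41% (229 cells, exact 95% interval 8.28 to 10.6) and 9.52% (301 cells, 8.52 to 10.6) in the E12.5 libraries, 5.31% (85 cells, 4.26 to 6.52) and 5.96% (86 cells, 4.80 to 7.31) at E14.5, and 4.54% (66 cells, 3.53 to 5.74) and 3.09% (38 cells, 2.20 to 4.22) at E16.5. At P3 the share was 0.830% (24 cells, 0.533 to 1.23), with 12 cells under each of its 2 barcode suffixes. These suffixes are called wells here, a name that the labels do not give. Libraries of different embryonic stages did not overlap. A two-sided exact permutation test over the 6 embryonic libraries gave p = 0.0667, the smallest value that its 15 arrangements allow, so the design could not reach 0.05. The intervals cover counting error only, and the share depends on how the other cells of the heart were released and kept. When the rule was applied to cells thinned to 2000 UMIs each, the stage means of 9.47%, 5.63% and 3.82% became 4.31%, 2.21% and 2.00%, with the same order.

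The share of epicardial cells with a UMI of the proliferation genes Mki67 or Top2a was compared after thinning each cell to 2000 UMIs. The E12.5 libraries gave 20.5% and 20.3%, those of E14.5 gave 9.41% and 15.1%, those of E16.5 gave 13.6% and 10.53%, and P3 gave 8.33%. Among the other low-Tnnt2 cells the share was between 14.7% and 20.4% in all matrices. The 2 E12.5 libraries were the highest of the epicardial values, and the two-sided exact permutation test over the 6 embryonic libraries gave p = 0.200. With 0.0667 as its smallest possible p, this test could not reach 0.05 and does not show that the stages were alike. Without doublets marked by Scrublet, the stage means of 12.3% at E14.5 and 12.1% at E16.5 were 7.53% and 8.64%. Without thinning, the E12.5 libraries gave 41.1% and 34.9%, those of E14.5 gave 17.7% and 22.1%, those of E16.5 gave 24.2% and 23.7%, and P3 gave 20.8%.

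**Figure D2:**
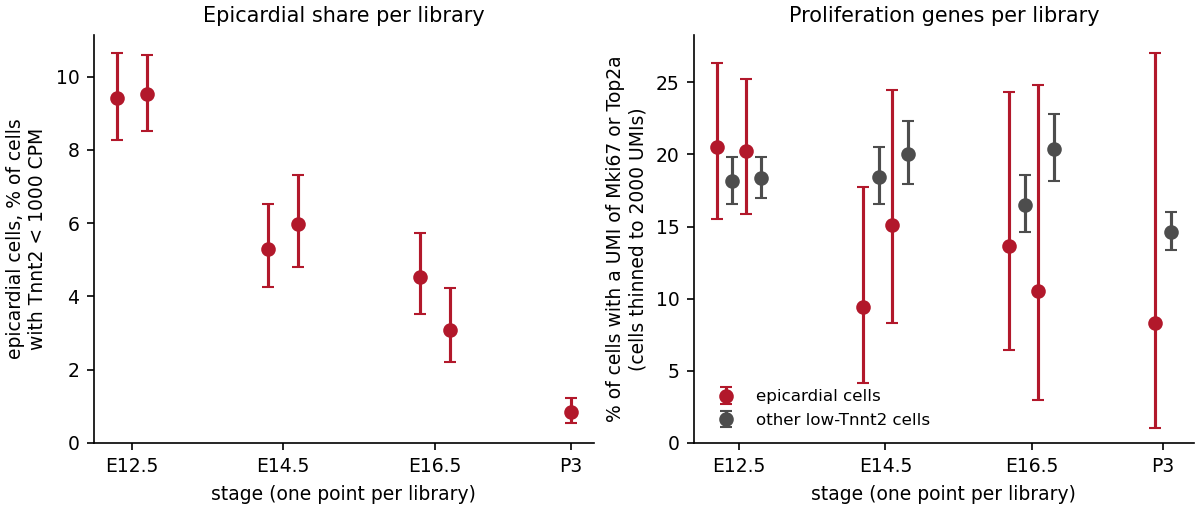
Left, epicardial cells as a percentage of all cells with Tnnt2 below 1000 CPM; right, percentage of cells with a UMI of Mki67 or Top2a after thinning to 2000 UMIs (red, epicardial cells; grey, other low-Tnnt2 cells). Each point is 1 library and bars are exact 95% intervals. The epicardial share was 9.41% and 9.52% at E12.5 and 0.830% at P3, and the epicardial proliferation shares were highest at E12.5 at 20.5% and 20.3%.

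The median epicardial cell held between 9580.5 and 18346 UMIs, and the median other low-Tnnt2 cell between 9400 and 17997. Within a matrix the medians were furthest apart at P3, at 17179 in epicardial and 11024 in other cells, and in the second E16.5 library, at 12583.5 and 9791. The summed epicardial cells held 4596252 and 5128675 UMIs in the E12.5 libraries, 1130555 and 1008446 UMIs in those of E14.5, 1117551 and 492124 UMIs in those of E16.5 and 580834 UMIs at P3, so that the second E16.5 library gave the least precise values. No cell barcode was shared between the epicardial cells of any 2 matrices, although any 2 matrices shared 23 to 100 cell barcodes in all.

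RNA of other cell types was present in the epicardial sums and moved with stage. The 7 globin genes summed to 2229 and 4118 CPM at E12.5, 19886 and 1205 CPM at E14.5, 7792 and 27839 CPM at E16.5 and 647 CPM at P3. Without the 4 epicardial cells in which globin exceeded 10% of UMIs, the 6 embryonic sums lay between 1205 and 2229 CPM. Endothelial markers summed to 202 and 97.1 CPM at E12.5, 349 and 558 CPM at E14.5, 377 and 116 CPM at E16.5 and 2825 CPM at P3. Without the 20 epicardial cells (2.41%) that held 3 or more UMIs of Pecam1, Cdh5, Cldn5 and Tie1 together, the endothelial sums were between 69.2 and 121 CPM in the embryonic libraries and 322 CPM at P3. Of these 20 cells, 8 were marked by the doublet caller Scrublet. Marks were not limited to them. Scrublet marked 4.17% (P3) to 13.2% (second E16.5 library) of the epicardial cells of a matrix, against 3.45% to 5.41% of all its cells. The epicardial percentage was the larger in every matrix, although that of P3 rested on 1 marked cell (4.17% against 4.09%). All marked cells were kept in the main result.

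Cardiomyocyte markers other than Tnnt2 summed to between 2282 and 4442 CPM in the epicardial cells, against 58032 to 74038 CPM in the cells with Tnnt2 from 1000 CPM. Among them Myl7, the atrial regulatory light chain, stood at 2152 and 2113 CPM at E12.5, 1016 and 1147 CPM at E14.5, 1117 and 1142 CPM at E16.5 and 659 CPM at P3. In the other low-Tnnt2 cells Myl7 was between 71.1 and 215 CPM in all 7 matrices, below the epicardial cells in each. Actc1, cardiac actin, was at 348 and 454 CPM in the epicardial cells at E12.5 and at 357 and 391 CPM in the other cells. The mural markers Higd1b and Myh11, the leukocyte gene Ptprc, the glial genes Sox10 and Foxd3 and the hepatic gene Fgb were at 0 UMIs in the epicardial cells of the embryonic libraries, and the full marker sums were between 11.3 and 53.4 CPM for macrophages, 3.44 and 10.3 CPM for glia and 0.585 and 16.1 CPM for liver and gut. The part of any of these cells in the results below was not tested beyond the values given.

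**Figure D3:**
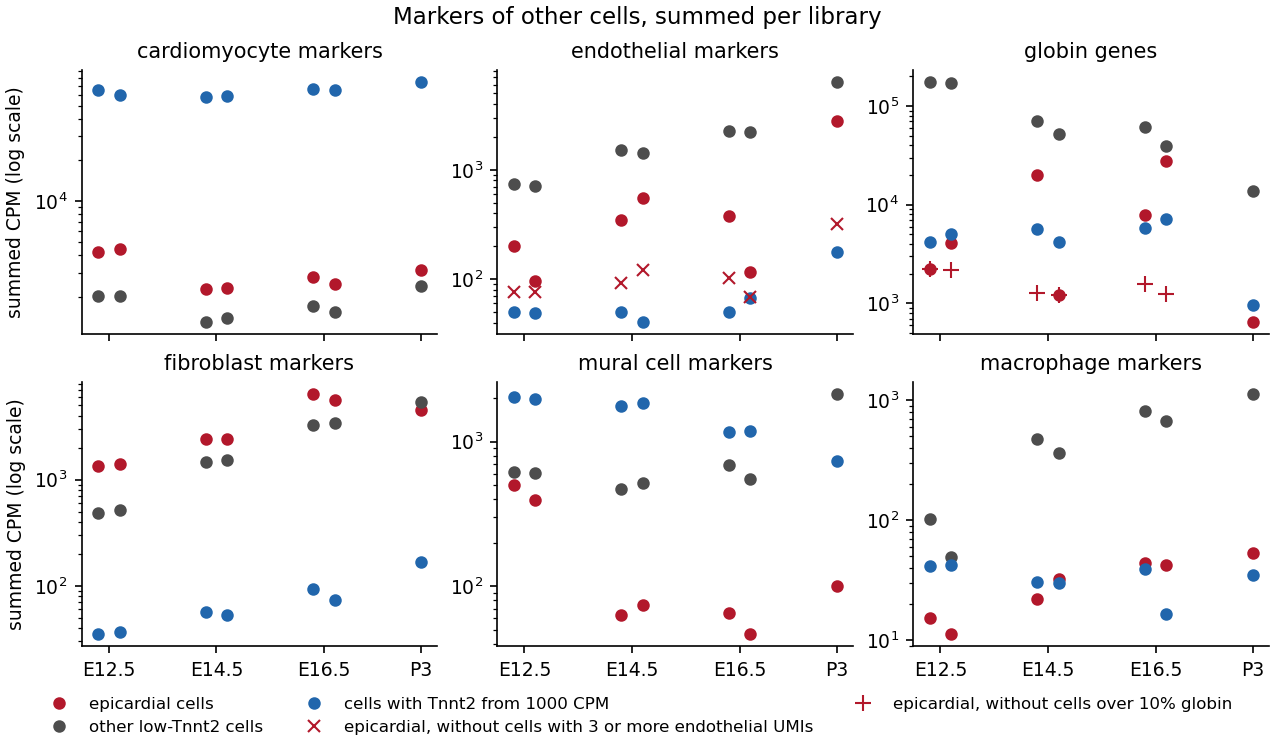
Summed CPM (log scale) of marker lists of 6 other cell types in each library, by stage. Red points are epicardial cells, grey points other low-Tnnt2 cells and blue points cells with Tnnt2 from 1000 CPM; crosses leave out the 20 epicardial cells with endothelial UMIs and pluses the 4 with over 10% globin UMIs, which brings the embryonic epicardial sums to 69.2 to 121 CPM for endothelial markers and 1205 to 2229 CPM for globins.

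Stage changes within the epicardial cells were tested on counts summed per library, over 8419 genes and the 6 embryonic libraries, with the quasi-likelihood test of edgeR and Benjamini-Hochberg adjustment. From E12.5 to E14.5, 719 genes rose (8.54% of the tested genes) and 697 fell (8.28%). From E14.5 to E16.5, 566 rose (6.72%) and 268 fell (3.18%). Over the whole interval from E12.5 to E16.5, 1214 rose (14.4%) and 1020 fell (12.1%), and the median of all genes was -0.03 on the log2 scale. Across both steps, 130 genes rose in each step, 21 fell in each, 64 rose and then fell, and 79 fell and then rose.

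These counts depended on single libraries. Without the first E16.5 library, which left the 492124 UMIs of the second, the 834 calls from E14.5 to E16.5 became 311 and the 2234 calls from E12.5 to E16.5 became 940. The 1416 calls from E12.5 to E14.5 became 652 without the first E12.5 library, 774 without the first and 653 without the second E14.5 library, and the 834 became 554 and 541 without the first and the second E14.5 library. Calls by DESeq2 numbered 518 (284 higher, 234 lower), 455 (360 higher, 95 lower) and 1165 (774 higher, 391 lower) for the same 3 comparisons, so the share of rises was larger there than the 67.9% and 54.3% by edgeR in the last 2. A gene is named below with the library whose loss ended its call.

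Of 17 tested mesothelial and epithelial genes outside the rule, 10 were higher at E16.5 than at E12.5, 1 was lower and 6 did not pass, with a median log2 change of 0.77 against -0.03 over all genes. The shares over all genes were 14.4% higher and 12.1% lower. Mesothelin (Msln, chr17:25748613-25754378, minus strand), a surface protein of mesothelium, was at 21.3 and 17.7 CPM at E12.5, 93.8 and 65.5 CPM at E14.5, 302 and 317 CPM at E16.5 and 1467 CPM at P3. The change from E12.5 to E16.5 was 3.99 ± 0.19 (log2, SE; adjusted p = 6.89e-12), and Msln rose in each of the steps. Muc16, the large mucin that binds mesothelin, was at 8.48 and 12.48 CPM at E12.5 and 37.6 and 52.8 CPM at E16.5 (2.03 ± 0.29, adjusted p = 2.27e-05).

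The keratins rose in the second step. Krt19 did not pass from E12.5 to E14.5 (-0.19 ± 0.15, adjusted p = 0.41) and rose by 2.16 ± 0.16 from E14.5 to E16.5 (adjusted p = 1.40e-08). Krt8, its partner type II keratin, was at 45.5 and 52.5 CPM at E12.5, 22.1 and 37.7 CPM at E14.5 and 187 and 154 CPM at E16.5, a rise of 2.57 ± 0.23 in the second step (adjusted p = 2.36e-07). Its fall in the first step (-0.74 ± 0.23, adjusted p = 0.035) did not pass without the second E12.5 (adjusted p = 0.12) or the first E14.5 library (0.39), nor with DESeq2 (0.13). Krt18 was at 158 and 170 CPM at E12.5, 96.4 and 105 CPM at E14.5 and 272 and 380 CPM at E16.5, falling by -0.71 ± 0.16 (adjusted p = 0.0062; 0.058 without the first E14.5 library) and then rising by 1.68 ± 0.17 (adjusted p = 1.42e-06). Gpm6a, a membrane glycoprotein, rose by 1.96 ± 0.18 from E12.5 to E16.5 (adjusted p = 6.38e-08). Bnc1 at 0.03 ± 0.19 (adjusted p = 0.92), the placental cadherin Cdh3 at 0.17 ± 0.17 (adjusted p = 0.51) and the polarity gene Crb2 at -0.15 ± 0.25 (adjusted p = 0.70) did not pass. The sialomucin Podxl was the member that was lower, by -0.72 ± 0.22 (adjusted p = 0.019), a call lost without the second E12.5 library (adjusted p = 0.057) and without the first (0.087) or second (0.10) E16.5 library.

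None of 13 tested epicardial transcription factors was higher at E16.5 than at E12.5, 6 were lower and 7 did not pass, with a median of -0.62. Over all genes 14.4% were higher and 12.1% lower, so an absence of rises among 13 genes is near the general share. In both other comparisons no member was higher either, beside 8.54% and 6.72% of all genes. Nor was any higher at an unadjusted p under 0.05 or with DESeq2 in the 3 comparisons. At E14.5 against E12.5, 2 were lower, and at E16.5 against E14.5, 4 were lower, beside 8.28% and 3.18% of all genes. The last 4, Gata4, Hand2, Meis2 and Tbx18, were calls that single libraries ended, the first E16.5 library among them. With DESeq2 Gata4, Hand2 and Meis2 did not pass (adjusted p = 0.16, 0.18 and 0.059). Sox9, a regulator of matrix-making progenitors, was at 58.3 and 67.3 CPM at E12.5, 15.04 and 14.87 CPM at E14.5 and 11.6 and 2.03 CPM at E16.5 (-2.85 ± 0.34 over the interval, adjusted p = 2.54e-06; -4.88 without the first E16.5 library). Tcf21, which marks and promotes the cardiac fibroblast lineage, was at 71.8 and 80.5 CPM at E12.5, 17.7 and 26.8 CPM at E14.5 and 20.6 and 26.4 CPM at E16.5, so that its fall lay in the first step (-1.79 ± 0.22, adjusted p = 2.17e-05). The T-box factor Tbx18 fell from 272 and 294 CPM at E12.5 to 182 and 158 CPM at E16.5 (-0.71 ± 0.14, adjusted p = 0.00091). Gata6 (-0.04 ± 0.14, adjusted p = 0.87) and Gata4 (-0.40 ± 0.20, adjusted p = 0.16) did not pass over the interval. Nr2f1 was lower by -1.49 ± 0.48 (adjusted p = 0.028), a call lost without the second E12.5 library (adjusted p = 0.12) or without either E16.5 library (0.091 and 0.11).

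Of 10 tested genes of retinoic acid synthesis and response, 3 rose from E12.5 to E16.5, 1 fell and 6 did not pass (median 0.34). Over all genes 14.4% rose and 12.1% fell. Aldh1a2, the enzyme that makes retinoic acid in the epicardium, was at 136 and 146 CPM at E12.5, 176 and 176 CPM at E14.5 and 222 and 220 CPM at E16.5 (0.65 ± 0.14, adjusted p = 0.0014), and stood at 134 CPM at P3. The retinol carrier of plasma, Rbp4, and the retinol dehydrogenase Rdh10 passed at changes of 1.95 ± 0.51 and 1.17 ± 0.34. The Rbp4 call was lost without the first E16.5 library (adjusted p = 0.18; 3.04 without the second E12.5 library), and Rdh10 was lost without the first E12.5 library (0.11) and without the first (0.11) or second (0.066) E16.5 library.

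Secreted growth and guidance factors were divided, with 9 of 28 tested higher at E16.5 than at E12.5, 8 lower and 11 not passing (median 0.12). Over all genes 14.4% were higher and 12.1% lower. Cxcl12, the ligand of Cxcr4, was at 94.2 and 44.7 CPM at E12.5, 21.2 and 23.8 CPM at E14.5 and 5.37 and 10.2 CPM at E16.5 (-3.31 ± 0.49, adjusted p = 3.82e-05; -2.69 without the first E12.5 and -2.72 without the first E16.5 library). The heparin-binding factors midkine and pleiotrophin fell, Mdk from 1965 and 1811 CPM at E12.5 to 621 and 654 CPM at E16.5 (-1.56 ± 0.14, adjusted p = 5.88e-08) and Ptn from 1321 and 1147 CPM to 423 and 303 CPM (-1.74 ± 0.17, adjusted p = 2.72e-07). Slit2, a guidance ligand of Robo receptors, went from 36.8 and 40.0 CPM to 9.84 and 10.2 CPM (-1.94 ± 0.31, adjusted p = 0.00011).

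Of the factors that rose, Sema3c, a semaphorin of outflow tract development, was at 22.6 and 17.0 CPM at E12.5 and 106 and 48.8 CPM at E16.5 (2.11 ± 0.26, adjusted p = 3.66e-06; 1.34 without the first E16.5 library). Rspo1 rose in the first step, from 163 and 190 CPM to 400 and 375 CPM (1.13, adjusted p = 3.37e-05), and was at 303 and 378 CPM at E16.5. The Wnt antagonist Sfrp2 rose and fell again, at 67.9 and 66.1 CPM at E12.5, 171 and 147 CPM at E14.5 and 61.7 and 67.1 CPM at E16.5 (1.24 ± 0.16, adjusted p = 2.17e-05, then -1.31 ± 0.19, adjusted p = 0.00012). Vegfa, the endothelial growth factor, passed at -2.27 ± 0.58 (adjusted p = 0.0064) from E12.5 to E16.5, which rested on the first E16.5 library (-0.88 without it, adjusted p = 0.45; -4.05 without the second). Bmp4 at -0.42 ± 0.18 (adjusted p = 0.087) did not pass.

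Of 8 tested genes of binding proteins and receptors of insulin-like growth factors, 5 were higher at E16.5 than at E12.5, 1 was lower, the receptor Igf2r, and 2 did not pass, with a median of 1.66. The shares over all genes were 14.4% higher and 12.1% lower. Igfbp6, which binds IGF2 with preference, was at 18.3 and 18.5 CPM at E12.5, 61.9 and 76.4 CPM at E14.5, 668 and 685 CPM at E16.5 and 1515 CPM at P3. It rose by 1.90 ± 0.18 in the first step and by 3.31 ± 0.16 in the second (adjusted p = 7.06e-07 and 3.22e-11). Igfbp7 did not pass in the first step (-0.24, adjusted p = 0.40) and rose by 3.00 ± 0.18 in the second (adjusted p = 2.07e-09), to 394 and 327 CPM. Igfbp5, at 304 and 313 CPM at E12.5, reached 1149 and 999.7 CPM at E16.5 and 3164 CPM at P3. Igfbp3 rose by 2.62 ± 0.33 over the interval (adjusted p = 5.01e-06), with 40.7 CPM in the first and 164 CPM in the second E14.5 library. The ligand Igf2 itself rose by 0.70 ± 0.14 (adjusted p = 0.00078), from 728 and 883 CPM to 1144 and 1469 CPM.

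Genes of the epithelial to mesenchymal transition did not share a direction. At E16.5 against E12.5, 7 of 22 tested members were higher, 7 lower and 8 did not pass, with a median of -0.35. Over all genes 14.4% were higher and 12.1% lower. Contractile genes were among the members that fell. Tagln, an actin-binding protein of smooth muscle, was at 230 and 186 CPM at E12.5, 22.1 and 17.9 CPM at E14.5, 8.95 and 4.06 CPM at E16.5 and 13.8 CPM at P3 (-3.37 ± 0.22 in the first step, adjusted p = 2.36e-08). Acta2, smooth muscle actin, was at 208 and 158 CPM at E12.5, 24.8 and 24.8 CPM at E14.5 and 32.2 and 24.4 CPM at E16.5 (-2.89 ± 0.21, adjusted p = 4.52e-08). The myosin light chain Myl9 fell in the same step from 152 and 139 CPM to 31.8 and 30.7 CPM (-2.22 ± 0.19, adjusted p = 3.12e-07), and the Z-disc protein Pdlim3 from 57.9 and 49.9 CPM to 5.31 and 7.93 CPM (-3.03 ± 0.34, adjusted p = 6.15e-06).

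In the other low-Tnnt2 cells Tagln was at 285 and 271 CPM at E12.5, 163 and 184 CPM at E14.5 and 111 and 94.0 CPM at E16.5. Tagln and Acta2 are also markers of mural cells, and the sum of the mural list in epicardial cells was 499 and 392 CPM at E12.5 and between 46.7 and 74.4 CPM at E14.5 and E16.5. Tagln in the cells with Tnnt2 from 1000 CPM was at 452 and 392 CPM at E12.5, 162 and 160 CPM at E14.5 and 27.0 and 23.3 CPM at E16.5. In barcodes of up to 100 UMIs, below the limit for a cell, Tagln was at 334 and 313, 117 and 109.5, and 25.7 and 26.7 CPM in the same order. Acta2 there was at 1006 and 951 CPM at E12.5 and 976 and 981 CPM at E14.5. Both genes were higher in these barcodes than in the epicardial cells of each library. The part of RNA from outside the cells was not tested. Cardiomyocyte markers in epicardial cells fell in the first step, 9 of 13 tested being lower and 0 higher at E14.5 (also 0 at an unadjusted p under 0.05 and with DESeq2), with a median of -0.94. Over all genes 8.28% were lower and 8.54% higher in that step. The part of cardiomyocyte RNA in the change of the contractile genes was not tested. Integrin alpha 4 (Itga4), through which epicardial cells attach to the myocardium, was at 13.3 and 19.9 CPM at E12.5 and 0.884 and 0.992 CPM at E14.5, a ratio of 17.9 (95% counting interval 4.88 to 149), and had no UMI at E16.5, at least 2.18-fold lower than at E12.5 against a floor of 3 counts per library.

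Members of the same list that rose were the hyaluronan receptor Cd44, from 1.74 and 5.46 CPM at E12.5 to 43.9 and 38.6 CPM at E16.5 (3.50 ± 0.36, adjusted p = 4.34e-07; 4.52 without the second E12.5 library), and the TGF-beta receptor Tgfbr2, from 8.48 and 9.36 CPM to 67.1 and 38.6 CPM (2.67 ± 0.26, adjusted p = 2.22e-07). The calcium-binding protein S100a4 rose in the second step from 42.5 and 34.7 CPM to 127 and 83.3 CPM (1.52 ± 0.23, adjusted p = 0.00017). Vimentin (Vim) at 0.20 ± 0.12 (adjusted p = 0.22) and the repressor Snai1 at 0.72 ± 0.47 (adjusted p = 0.29) did not pass from E12.5 to E16.5.

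**Figure D4:**
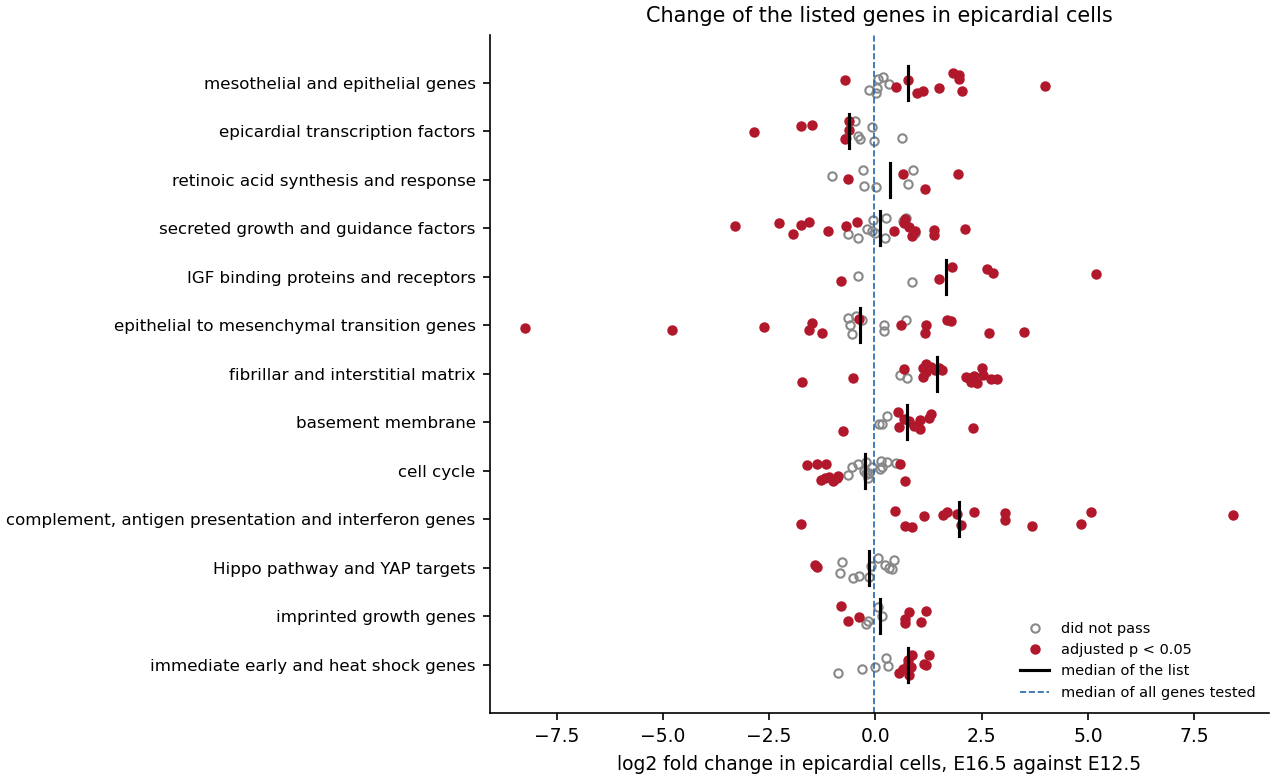
Change from E12.5 to E16.5 in epicardial cells (x axis, log2 fold change) of the tested genes of 13 gene lists (rows). Filled points passed an adjusted p of 0.05, black bars are list medians and the dashed line is the median of all genes at -0.03. Of the fibrillar matrix genes 18 of 22, and of the complement, antigen presentation and interferon genes 15 of 16, lay to the right and passed. No epicardial transcription factor did, beside 14.4% of all genes.

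Most fibrillar and interstitial matrix genes rose. Of 22 tested, 18 were higher at E16.5 than at E12.5, 2 lower and 2 did not pass, with a median of 1.44, beside 14.4% higher and 12.1% lower over all genes. In the second step alone 17 rose and 0 fell (also 0 at an unadjusted p under 0.05 and with DESeq2), beside 6.72% and 3.18% of all genes. The 8 fibroblast markers, of which 5 are also in the matrix list, summed to 1347 and 1410 CPM in the epicardial cells at E12.5, 2397 and 2414 CPM at E14.5, 6373 and 5619 CPM at E16.5 and 4537 CPM at P3. Without the 3 P3 cells with endothelial UMIs the P3 sum was 6136 CPM. Of 6 tested fibroblast markers, 2 rose from E12.5 to E16.5 and 2 fell, beside 14.4% and 12.1% of all genes. Those that fell were Tcf21 (-1.75 ± 0.25, adjusted p = 2.15e-05) and Pdgfra (-1.56 ± 0.45, adjusted p = 0.013). The Pdgfra call was lost with DESeq2 (adjusted p = 0.089) and without the first E16.5 library. The part of fibroblast RNA in these changes was not tested. Col1a1, a chain of collagen I, was at 529 and 634 CPM at E12.5, 1417 and 1616 CPM at E14.5, 4422 and 4044 CPM at E16.5 and 1460 CPM at P3 (2.87 ± 0.12 from E12.5 to E16.5, adjusted p = 1.36e-12). Without the P3 cells with endothelial UMIs, Col1a1 was at 2000 CPM at P3. Col3a1, the chain of collagen III, went from 390 and 377 CPM to 2705 and 2302 CPM (2.72 ± 0.14, adjusted p = 2.33e-11). Mgp, an inhibitor of calcification, rose by 2.53 ± 0.19 (adjusted p = 5.89e-09) and Timp2, an inhibitor of metalloproteinases, by 2.50 ± 0.14 (adjusted p = 7.72e-11).

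Col1a1 was also higher at E16.5 in the other low-Tnnt2 cells, at 108 and 148 CPM at E12.5 and 920 and 1039 CPM at E16.5, and the difference between the 2 changes did not pass (0.07, adjusted p = 0.75). The small proteoglycan decorin (Dcn) rose less in epicardial cells than in the others, with a difference of -3.46 ± 0.11 (adjusted p = 2.17e-31), although it rose in the epicardial cells themselves from 654 and 594 CPM to 1781 and 1479 CPM. Versican (Vcan), a proteoglycan of loose embryonic matrix, fell in the first step from 45.7 and 39.8 CPM to 5.31 and 8.93 CPM (-2.60 ± 0.34, adjusted p = 4.42e-05). Periostin (Postn) rested on 2 UMIs at E14.5, with a ratio of 19.1 (5.22 to 159) down from E12.5 and of 33.2 (8.73 to 282) up to E16.5, and the second call was lost without the first E16.5 library (adjusted p = 0.073).

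The matrix genes were spread over the epicardial cells. Their summed level per cell had a median of 6931 and 6202 CPM at E12.5, 10273 and 10541 CPM at E14.5, 24413 and 20621 CPM at E16.5 and 34000 CPM at P3, while the median of the epithelial genes went from 1428 and 1322 CPM at E12.5 to 2494 and 2406 CPM at E16.5. Both medians were higher in the 2 E16.5 libraries than in the 2 E12.5 libraries.

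Basement membrane genes rose in 10 of 14 tested from E12.5 to E16.5, with 1 lower, 3 not passing and a median of 0.73. Over all genes 14.4% rose and 12.1% fell. Npnt, a ligand of integrin alpha 8, was at 54.2 and 48.8 CPM at E12.5, 124 and 117 CPM at E14.5 and 106 and 106 CPM at E16.5 (1.05 ± 0.17, adjusted p = 0.00012). The laminin chain Lama4 rose by 1.26 ± 0.31 (adjusted p = 0.0055), but did not pass with DESeq2 (adjusted p = 0.066). Frem2 (2.29 ± 0.49) and the laminin chain Lamb2 (1.30 ± 0.25) passed as well, but not without the first E16.5 library (adjusted p = 0.14 and 0.051; Frem2 2.95 without the second E12.5 library).

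Of 24 listed complement, antigen presentation and interferon genes, 16 passed the filter on low counts and were tested. From E12.5 to E16.5, 15 of the 16 rose and 1 was lower, with a median of 1.97, beside 14.4% higher over all genes. Members near 0 before E16.5, such as C3 and Saa3, passed that filter through their E16.5 counts, so the count and the median lean toward rises. From E12.5 to E14.5, 1 rose and 1 fell, beside 8.54% and 8.28% of all genes. From E14.5 to E16.5, 11 rose and 0 fell (also 0 at an unadjusted p under 0.05 and with DESeq2), beside 6.72% and 3.18% of all genes. The list summed to 1135 and 1018 CPM in epicardial cells at E12.5 and 2307 and 2308 CPM at E16.5. In the other low-Tnnt2 cells it also rose, from 1182 and 1042 CPM to 2031 and 1864 CPM. The difference between the 2 changes passed upward for 5 of 21 members and downward for 3, and 13 did not pass. Over all genes 6.21% passed upward and 7.17% downward. Complement C3, the central component of the cascade, was at 1.30 and 1.56 CPM at E12.5, 1.77 and 2.98 CPM at E14.5, 56.4 and 38.6 CPM at E16.5 and 1772 CPM at P3 (5.07 ± 0.35 from E12.5 to E16.5, adjusted p = 1.23e-09). The galectin Lgals3 went from 1.96 and 0.975 CPM to 34.0 and 56.9 CPM (4.83 ± 0.42, adjusted p = 4.03e-08) and the MHC class I gene H2-K1 from 1.74 and 2.34 CPM to 25.9 and 28.4 CPM (3.68 ± 0.43, adjusted p = 1.96e-06). Ifitm3, an interferon-induced membrane protein, rose in the second step from 46.0 and 28.8 CPM to 348 and 380 CPM (3.27 ± 0.21, adjusted p = 3.17e-09). The acute phase gene Saa3 had no UMI before E16.5 and 16.1 and 24.4 CPM there, at least 24.7-fold above E12.5. With DESeq2 the Saa3 change from E12.5 to E16.5 did not pass (adjusted p = 0.23). Isg15, a ubiquitin-like interferon target, was the member that was lower (-1.74 ± 0.49, adjusted p = 0.012), a call lost without the first E12.5 library (adjusted p = 0.096) or without either E16.5 library (0.063 and 0.055). Macrophage markers in the epicardial cells summed to 15.2 and 11.3 CPM at E12.5, 22.1 and 32.7 CPM at E14.5, 43.9 and 42.7 CPM at E16.5 and 53.4 CPM at P3. Of the 9 markers 1 passed the filter on low counts, Csf1r, the receptor of a macrophage growth factor, which rose by 2.07 ± 0.30 from E12.5 to E16.5 (adjusted p = 3.38e-05), while Ptprc had no UMI in the embryonic libraries. Csf1r was at 31.0 CPM of the P3 sum, and the lysozyme Lyz2 was at no more than 1.79 CPM in any matrix. The part of such RNA in the change of this list was not tested.

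Cell cycle genes fell from E12.5 to E14.5 in 7 of 26 tested, with a median of -0.45 and 0 higher (also 0 at an unadjusted p under 0.05 and with DESeq2). Over all genes 8.28% fell and 8.54% rose in that step. From E14.5 to E16.5, 2 of the cell cycle genes rose and 1 fell, beside 6.72% and 3.18% of all genes. Cyclin D1 (Ccnd1) was at 89.4 and 106 CPM at E12.5, 32.7 and 44.6 CPM at E14.5 and 75.2 and 52.8 CPM at E16.5 (-1.36 ± 0.21 in the first step, adjusted p = 0.00018). Cyclin D2 (Ccnd2) fell over the interval from 549 and 565 CPM to 237 and 252 CPM (-1.18 ± 0.15, adjusted p = 5.77e-06). The replication licensing genes Mcm2, Mcm4 and Mcm5 were lower at E16.5 than at E12.5 by -1.62, -1.37 and -1.27. These calls did not pass with DESeq2 (adjusted p = 0.061, 0.11 and 0.11) and were lost without the first E16.5 library (-1.75, -1.33 and -1.04). Top2a at 0.13 ± 0.15 (adjusted p = 0.56) did not pass. The cell cycle inhibitor Cdkn1c rose from 1403 and 1240 CPM at E14.5 to 2387 and 2914 CPM at E16.5 (1.02 ± 0.12, adjusted p = 1.09e-05) and was at 634 CPM at P3.

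Imprinted growth genes changed in both directions. Of 12 tested, 5 rose from E12.5 to E16.5, 3 fell and 4 did not pass (median 0.10). Over all genes 14.4% rose and 12.1% fell. H19, a noncoding RNA of the Igf2 locus, was at 2670 and 3092 CPM at E12.5, 5592 and 6101 CPM at E14.5, 6132 and 5978 CPM at E16.5 and 659 CPM at P3 (1.08 ± 0.09 from E12.5 to E16.5, adjusted p = 2.12e-08). Meg3, a noncoding RNA of the Dlk1 locus, peaked at E14.5, where it was at 4237 and 3887 CPM against 1323 and 1291 CPM at E12.5 and 2026 and 2424 CPM at E16.5 (1.63 ± 0.11, adjusted p = 2.49e-08, then -0.86 ± 0.11, adjusted p = 2.36e-05). The zinc finger gene Plagl1 was also highest at E14.5, at 292 and 289, 550 and 489, and 142 and 195 CPM in the order of the stages, with a fall of -1.65 ± 0.16 in the second step (adjusted p = 9.20e-07). Over the interval Meg3 rose by 0.78 ± 0.11 (adjusted p = 2.46e-05) and Plagl1 fell by -0.81 ± 0.16 (adjusted p = 0.00083), the latter not without the first E16.5 library (-0.54, adjusted p = 0.098). Dlk1 rose by 1.20 ± 0.19 over the interval (adjusted p = 8.29e-05).

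Immediate early and heat shock genes rose in 10 of 15 tested from E12.5 to E16.5, 0 fell (1 at an unadjusted p under 0.05, 0 with DESeq2), and the median was 0.76. Over all genes 14.4% rose and 12.1% fell. Fos was at 391 and 449 CPM at E12.5, 479 and 668 CPM at E14.5 and 896 and 1014 CPM at E16.5 (1.19 ± 0.15, adjusted p = 4.05e-06). Fosb (1.27 ± 0.21), Atf3 (1.15 ± 0.24) and Junb (0.85 ± 0.17), which also code for AP-1 family factors, passed as well, Atf3 not with DESeq2 (adjusted p = 0.12). The difference from the change of the other low-Tnnt2 cells was negative for Fos (-1.13 ± 0.12, adjusted p = 3.20e-11), and 10 of 17 members of the list changed downward relative to the others, beside 7.17% of all genes, with 0 upward by edgeR and 1 by DESeq2. Of 13 tested genes of the Hippo pathway and its targets, 2 fell from E12.5 to E16.5 and 0 rose (also 0 at an unadjusted p under 0.05 and with DESeq2), with a median of -0.16 against -0.03 and beside 12.1% lower and 14.4% higher over all genes. The cofactor gene Yap1 at 0.07 ± 0.28 (adjusted p = 0.88) did not pass, and the transcription factor Tead2 was lower by -1.42 ± 0.21 (adjusted p = 4.76e-05). The YAP target Ankrd1 was lower by -1.38 ± 0.40, a call lost without the second E12.5 (adjusted p = 0.084) or the first E16.5 library (0.15).

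Several of the genes that changed most belonged to none of these lists. From E12.5 to E14.5, the flavin monooxygenase Fmo2 rose from 5.22 and 1.76 CPM to 37.2 and 68.4 CPM (3.91 ± 0.35, adjusted p = 4.34e-07; 4.81 and 3.28 without the first and the second E12.5 library). Megf6 went from 7.83 and 7.99 CPM to 64.6 and 69.4 CPM (3.07 ± 0.24), the matrix protein thrombospondin 2 (Thbs2) from 9.57 and 10.9 CPM to 84.9 and 63.5 CPM (2.85 ± 0.22), and the secreted angiopoietin-like protein Angptl7 from 9.79 and 8.38 CPM to 70.8 and 43.6 CPM (2.66 ± 0.28). The stress-induced gene Nupr1 rose by 2.63 ± 0.34 (3.38 without the first E12.5 and 2.01 without the first E14.5 library). Caveolin 1 (Cav1) rose by 3.00 ± 0.26 (3.60 without the first E12.5 library), and by 1.96 when the 20 cells with endothelial UMIs were left out. The lipid carrier Fabp4, an endothelial marker, also passed (3.42 ± 0.75, adjusted p = 0.0041; 2.36 without the second E12.5 library), but stood at no more than 6.69 CPM at either stage without those cells and did not pass with DESeq2 (adjusted p = 0.61).

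Kcne1l, a potassium channel subunit, fell in both steps, from 260 and 256 CPM at E12.5 to 45.1 and 56.5 CPM at E14.5 and 16.1 and 4.06 CPM at E16.5 (-4.38 ± 0.26 from E12.5 to E16.5, adjusted p = 1.51e-10; -5.93 without the first E16.5 library). In the other low-Tnnt2 cells it was at 8.69 and 8.06 CPM at E12.5 and 34.5 and 36.4 CPM at E16.5. The chromatin protein Hmga2, a gene of embryonic growth, fell from 165 and 175 CPM at E12.5 to 46.0 and 74.4 CPM at E14.5 and 3.58 and 4.06 CPM at E16.5 (-5.48 ± 0.34, adjusted p = 2.74e-10), and was also lower at later stages in the other cells, at 122 and 118 CPM at E12.5 and 32.6 and 27.9 CPM at E16.5. In the second step the transcription factor Sox11 fell by -1.73 ± 0.24, the cofactor Lbh by -2.07 ± 0.20, Uba7, the enzyme that activates Isg15, by -1.82 ± 0.34 and 6330403K07Rik by -2.18 ± 0.29. Without the first E16.5 library the last 2 were at -3.74 and -3.78. The phosphatase Ptp4a3 was lower by -1.89 ± 0.37, which was -0.97 without the second E14.5 library, -1.56 (adjusted p = 0.16) without the first E16.5 library and -0.21 (adjusted p = 0.72) without the cells with endothelial UMIs.

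In the second step, the lysophosphatidic acid producing enzyme autotaxin (Enpp2) went from no UMI at E14.5 to 51.0 and 50.8 CPM at E16.5, at least 17.1-fold higher. Clic3, a chloride intracellular channel family protein, rose from 4.42 and 13.9 CPM to 195 and 185 CPM (4.43 ± 0.29, adjusted p = 3.17e-09; 3.82 and 5.38 without the first and the second E14.5 library), and the epithelial secreted protein dermokine (Dmkn) from 30.1 and 14.9 CPM to 433 and 252 CPM (3.96 ± 0.28, adjusted p = 1.33e-08; 4.61 without the first E14.5 library). Tmem119 went from 7.96 and 5.95 CPM to 107 and 146 CPM (4.13 ± 0.33), Ndufa4l2 from 1.77 and 7.93 CPM to 99.3 and 116 CPM (4.49 ± 0.42; 3.77 and 5.83 without the first and the second E14.5 library), the metallothionein Mt2 from 23.9 and 52.6 CPM to 563 and 250 CPM (3.50 ± 0.35; 4.11 without the second E14.5 and 2.78 without the first E16.5 library) and Cfap57, a protein of cilia, from 7.08 and 8.93 CPM to 94.0 and 75.2 CPM (3.45 ± 0.31).

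Over the whole interval the gene with the highest fitted fold was Slurp1, a secreted Ly6 family protein of epithelia, which went from 0.218 and 0.195 CPM at E12.5 to 173 and 124 CPM at E16.5, a ratio of 767 (95% counting interval 210 to 6370). The adhesion receptor Adgrd1 rose by 6.54 ± 0.36 (7.13 without the second E12.5 library). The efflux pump Abcb1b was 87.0-fold (35.6 to 276) above E12.5. These 3 genes were at no more than 6.02 CPM in the other low-Tnnt2 cells of all 6 embryonic libraries.

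Globin RNA comes from red cells, which change from embryonic to adult globins during development. The embryonic globins Hbb-y, Hbb-bh1 and Hba-x fell, Hbb-y from 1176 and 1963 CPM at E12.5 to 210 and 195 CPM at E14.5 and no UMI at E16.5, at least 193-fold lower than at E12.5. Hba-x was 164-fold (45.3 to 1355) and Hbb-bh1 163-fold (29.2 to 6440) lower at E16.5. The adult globin Hbb-bs rose by 5.34 ± 0.80 from E12.5 to E14.5 (2.00 without the first E14.5 library) and by 6.12 ± 0.83 to E16.5 (5.19 without the second E16.5 library). Without the 4 cells with over 10% globin UMIs, Hbb-bs was at 68.5 and 64.4 CPM at E12.5, 396 and 402 CPM at E14.5 and 780 and 619 CPM at E16.5. In the other low-Tnnt2 cells, Hbb-y was at 73382 and 69853 CPM at E12.5.

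**Figure D5:**
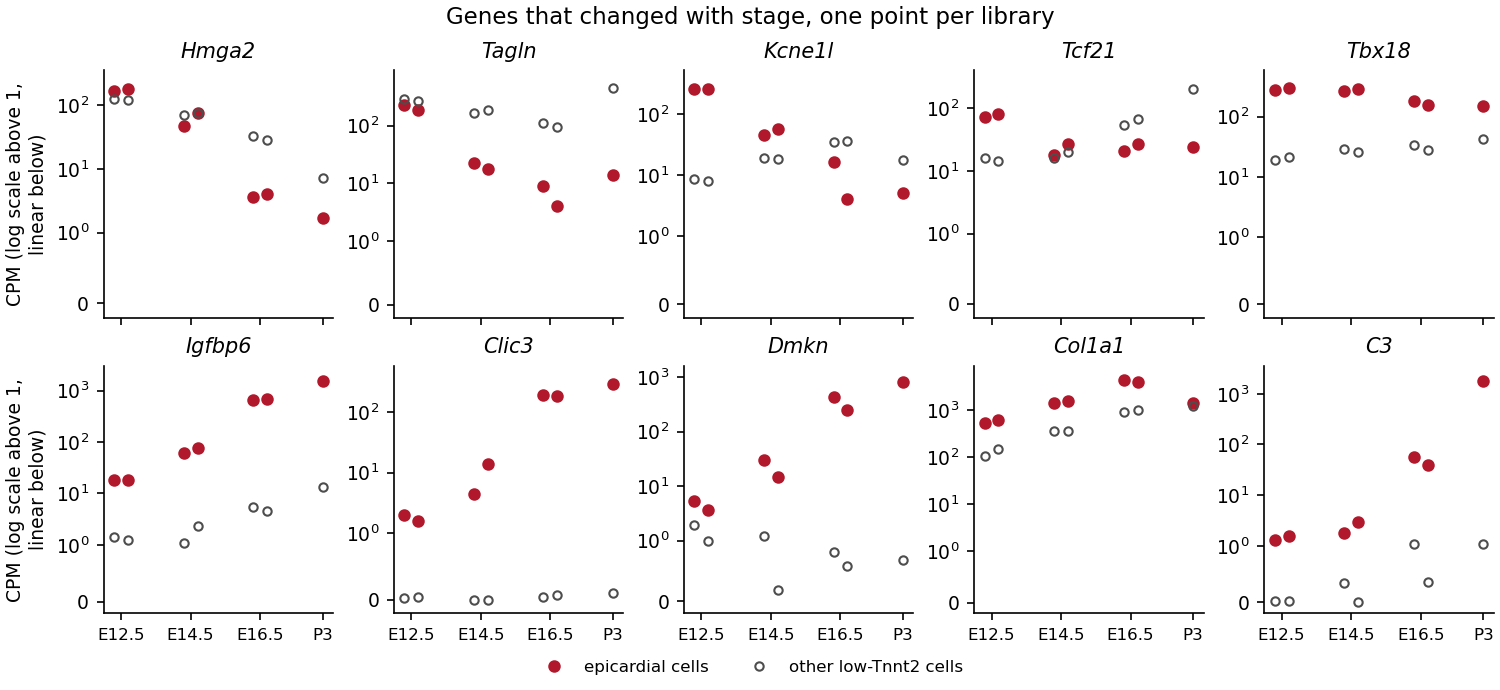
CPM of 10 genes by stage in epicardial cells (red, filled) and in the other low-Tnnt2 cells (grey, open), 1 point per library; the y axis is logarithmic above 1 CPM and linear below. Tagln fell from 230 and 186 CPM to 8.95 and 4.06 CPM in epicardial cells between E12.5 and E16.5, and Kcne1l fell there while it was at 8.69 and 8.06 CPM and then 34.5 and 36.4 CPM in the other cells.

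Whether a change from E12.5 to E16.5 differed between the epicardial and the other low-Tnnt2 cells was tested in a single fit over both cell classes of the 6 embryonic libraries, with the library as a block. Of 13648 genes, 847 (6.21%) changed upward relative to the other cells and 978 (7.17%) downward, and the median difference of all genes was -0.11 on the log2 scale. With size factors of DESeq2 in place of TMM that median was -0.03, so differences of this size depend on the scaling. The 1825 calls became 958 without the first E16.5 library, and DESeq2 called 648 higher and 422 lower.

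The epithelial genes differed in the upward direction, 11 of 17 with 1 downward and a median of 2.32, beside 6.21% upward over all genes. The rule itself takes uroplakin-marked cells out of the other cells, where Krt7 was at 0.241 and 0.0726 CPM at E16.5. Crb2 differed by 5.5 although its epicardial change did not pass. The count and the median thus partly describe the other cells and are not a measure of epicardial change alone. Keratin 8 (Krt8) differed by 5.66 ± 0.42 (adjusted p = 8.14e-16; 6.45 without the first E16.5 library) and Krt18 by 3.90 ± 0.28 (adjusted p = 2.54e-16). Their epicardial changes from E12.5 to E16.5 were 1.83 and 0.97, and the rest of each difference lay in the other cells. There Krt8 went from 1.84 and 2.12 to 0.193 and 0.0726 CPM and Krt18 from 4.18 and 4.09 to 0.578 and 0.581 CPM. The rule removes cells with 3 marker UMIs and a uroplakin from the other cells at every stage, and its part in these falls was not tested. Krt8 was detected in 3 of 1387 other cells of the first E16.5 library, so the size of its difference is not measured well. Krt19 differed by 3.27 ± 0.21 (adjusted p = 3.01e-18; 4.05 without the first E16.5 library). In barcodes of up to 100 UMIs, below the limit for a cell, Krt19 went from 48.0 and 41.4 CPM to 6.09 and 8.62 CPM. The part of RNA from outside the cells in the keratin differences was not tested. Among transcription factors, Tcf21 differed by -3.58 ± 0.22 (adjusted p = 3.00e-19), and it was at 15.9 and 14.4 CPM and then 54.1 and 67.7 CPM in the other cells. Aldh1a2 differed by -3.51 ± 0.19 (adjusted p = 1.61e-21), with 0.689 and 1.15 CPM and then 17.9 and 19.4 CPM in the other cells, and Ptn by -3.22 ± 0.12 (adjusted p = 1.54e-28). Cdkn1c differed by 2.37 ± 0.09 (adjusted p = 1.91e-27). The comparison cells are a mixture whose make-up changed with stage, and these differences depended on it. With endothelial cells alone as the comparison the Aldh1a2 difference was -0.01 (adjusted p = 1.0), and with mesenchymal cells alone the Cdkn1c difference was 0.05 (adjusted p = 0.82). The Krt18 and Ptn differences passed with either, but were 2.65 and -1.55 against endothelial cells, where those of Krt19 and Tcf21 also passed and were smaller.

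The P3 matrix gave 24 epicardial cells. It was taken as 1 sample, since the labels do not tie its 2 wells to the sample records, and its values stand without a test. Complement C3 was at 1772 CPM, 31.4-fold above the nearer E16.5 library, and at 2070 and 1528 CPM in the 2 wells. The ion transport regulator Fxyd3 was at 229 CPM (22.5-fold), with 210 and 244 CPM in the wells, and the MHC class I gene H2-D1 at 355 CPM (17.2-fold), with 448 and 279 CPM. For other genes the wells lay further apart. The complement protease C1s1 was at 122 CPM (15.04-fold), with 191 and 65.7 CPM in the wells, the tetraspanin Cd9 at 312 CPM (14.51-fold), with 528 and 135 CPM, and the growth factor Hbegf at 91.3 CPM (12.8-fold), with 172 and 25.04 CPM. The endothelial cadherin Cdh5 was at 198 CPM (16.2-fold; wells 34.4 and 332 CPM) and Cav2 at 108 CPM (13.3-fold; wells 38.3 and 166 CPM). When 3 cells with endothelial UMIs were left out, Cdh5, Cav2, Hbegf and Cd9 were at 0, 16.6, 7.09 and 170 CPM, whereas C3 was at 2433 CPM.

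Lower at P3 than in both E16.5 libraries were the adult globins Hba-a1, Hba-a2, Hbb-bs and Hbb-bt, by 7.64-fold to 18.1-fold, which rested largely on 1 globin-rich cell in each E16.5 library, Ndufa4l2 at 6.89 CPM (14.4-fold, from 4 UMIs at P3), the microfibril protein Mfap4 at 5.17 CPM (3 UMIs) against 67.1 and 71.1 CPM, H19 at 659 CPM (9.07-fold; wells 716 and 614 CPM) and Dlk1 at 122 CPM (8.499-fold; wells 210 and 50.1 CPM). Without the globin-rich cells, Hba-a1 was at 322 and 235 CPM at E16.5 against 115 CPM at P3, and Hbb-bs at 780 and 619 CPM against 336 CPM (126 and 507 CPM in the wells). By list, 15 of the 24 complement, antigen presentation and interferon genes were at 50 CPM or more at one of the 2 stages. All 15 were above both E16.5 libraries, with a median log2 ratio of 1.43. Members low at E16.5, such as H2-D1 at 20.6 and 14.2 CPM, met this filter only through their P3 level. The count and the median thus lean toward rises. Of all 2955 genes that met the same filter, 1796 were above both and 806 below both, with a median of 0.28. Of 13 epithelial genes, 10 were above both (median 0.50), and of 11 imprinted genes 8 were below both (median -0.87). The age, any mixture of the 2 sample records and any difference in cell release between fetal and postnatal hearts cannot be told apart here.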

How the data were processed

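The authors deposited UMI count matrices from 10x Genomics single-cell libraries of hearts at 3 embryonic stages and P3. Their processing notes name Cell Ranger 2.1.1 and Seurat 3.1.1 with the mm10 genome, whereas the matrix headers give software 3.1.0 (embryonic) and 3.0.0 (P3). The notes and the study's methods also differ on the digestion enzyme and the chemistry, so neither is stated here. The first E16.5 matrix joins 2 sample records, and P3 had a single matrix for 2 sample records. The wells of P3 are the 2 suffixes of its barcodes. Embryo libraries of E8.5 and E10.5 were not used here. The epicardial cells, the gene lists and the tests were chosen with earlier results of these data known.

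Cells were barcodes with at least 2000 UMIs and 500 genes, and the rule for epicardial cells is given in the report. Counts were summed per library and tested with the quasi-likelihood test of edgeR 4.0.16 (TMM, filterByExpr, Benjamini-Hochberg adjustment, threshold 0.05) in R 4.3.3. Stage fits used the 6 embryonic sums, without a block, and the difference of changes used 12 sums with the library as a block. Upk3b, Upk1b, Wt1 and Tnnt2 received no test. Shares were compared by exact permutation of libraries, after thinning to 2000 UMIs for detection. DESeq2 1.42.0 was an alternative. Single-sample P3 values and differences within a stage were described only. The step was tested on simulated data, where 72% of 2-fold and 99% of 4-fold changes between E16.5 and E12.5 were recovered over 8271 genes, and 53% and 97% of differences of changes over 13024 genes.

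Named genes were markers, the 20 leading genes, the 8 largest rises and falls per comparison from 50 CPM whose libraries did not overlap, up to 4 passing members per list, and 8 genes each way at P3. Other genes (list members that did not pass, the only member of a list that passed in one direction, Igf2, Mdk, Rspo1, Dcn and the keratins by step) were named after their values were seen. Alternatives covered marker, UMI, Tnnt2, mitochondrial and doublet limits (Scrublet doublets were kept in the main result), thinning, scaling, tool, filter, comparison cells and each library left out. One gene that the naming rule selected is not reported here. Gene coordinates are from GENCODE vM21 (mm10). Intervals cover counting error only. Python 3.11.15 with scipy 1.17.1 and scanpy 1.11.5 was used.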

Additional observations from a re-analysis of the deposited data

Results flagged for a closer look

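The change from E12.5 to E16.5 differed between epicardial and other low-Tnnt2 cells for 1825 genes by edgeR's interaction test, and the 8 genes with the largest difference in each direction are given here with their values in the 2 E12.5 and then the 2 E16.5 libraries.

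Upward in epicardial cells relative to the others were 8 genes. Cfap57 differed by 12.75, from 1.74 and 1.17 to 94.0 and 75.2 CPM in epicardial cells and from 17.6 and 20.6 to 0.145 and 0.218 CPM in the others, and by 6.90 without cells of over 10% globin UMIs. The metallothionein Mt2 differed by 7.89 (5.45 without those cells, 7.23 without the first E16.5 library), from 3.05 and 8.97 to 563 and 250 CPM against 47.4 and 83.1 to 22.3 and 20.4 CPM. Dermokine (Dmkn) differed by 7.41 and the annexin Anxa8 by 6.33, the latter from 1.09 and 1.56 to 52.8 and 52.8 CPM with no more than 1.10 CPM in the others at either stage. Pdzk1ip1 differed by 7.32 while it stayed at or below 4.47 CPM in epicardial cells and went from 69.5 and 72.3 to 0.915 and 0.944 CPM in the others, and did not pass without the globin-rich cells (2.33, adjusted p = 0.096). The cystatin Cst9 differed by 6.43 and Clic3 by 6.13, but the others held at most 3 and 2 UMIs of these genes per embryonic library, so that these sizes are not measured well enough to be read. Cst9 did not pass without the first E12.5 (5.23, adjusted p = 0.26) or the first E16.5 library (6.17, adjusted p = 0.12), nor Clic3 without the second E12.5 library (5.66, adjusted p = 0.22). The globin Hba-x differed by 6.23, a direction that turned in 3 alternatives.

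Downward were another 8 genes. Ccl21a differed by -10.02, with at most 2 UMIs per library in epicardial cells, so that its size is set by counts of 0, and did not pass with DESeq2 (adjusted p = 0.066) or without the first E12.5 library (adjusted p = 1.0). Kcne1l differed by -6.32 (-7.92 without the first E16.5 library). The potassium channel Kcnj8 differed by -5.69, at 12.2 and 8.97 then 11.6 and 6.10 CPM in epicardial cells and 0.988 and 1.19 then 62.5 and 51.3 CPM in the others. Col15a1 differed by -5.61 (-14.33 without the first E16.5 library), the pericyte gene Rgs5 by -5.02 (-4.01) and Fam46a by -4.07 (-13.85). Lsp1 differed by -4.56 (-5.38), from 126 and 185 to 51.0 and 22.4 CPM against 26.9 and 29.3 to 198 and 193 CPM in the others. The macrophage lysozyme Lyz2 differed by -4.34 (-11.29), did not pass with DESeq2 (adjusted p = 0.12), and was at no more than 1.79 CPM in epicardial cells at either stage. The make-up of the other cells changed with stage, and some differences did not pass against a single class of them. With mesenchymal cells alone as the comparison, Dmkn was at 3.99 (adjusted p = 0.10), Clic3 at 4.63 (0.95), Cst9 at 3.73 (1.0) and Hba-x at 4.68 (0.15). With endothelial cells alone, Clic3 was at 5.64 (adjusted p = 0.20), Cst9 at 5.67 (0.093), Pdzk1ip1 at 2.24 (0.079), Hba-x at 2.58 (0.54), Fam46a at -1.08 (0.22) and Lyz2 at -0.53 (0.86).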

How the results depend on the processing

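The 1416, 834 and 2234 calls of the 3 stage comparisons (E14.5 against E12.5, E16.5 against E14.5, E16.5 against E12.5) and the 1825 of the difference of changes moved most under 4 kinds of alternative. With the marker rule on thinned cells the stage counts were 450, 426 and 1228. With epicardial cells thinned to 2000 UMIs, which leaves fewer counts, they were 217, 201, 423 and 424. With DESeq2 they were 518, 455, 1165 and 1070, and with each library left out they ranged over 652 to 1536, 311 to 827, 940 to 2405 and 958 to 2055. The share of rises moved from 50.8% to 65.8% (thinned rule) and 61.8% (thinned cells) in the first comparison, from 67.9% to 79.1% (DESeq2) and 81.7% (without the first E16.5 library) in the second, and from 54.3% to 66.4% (DESeq2), 65.2% (thinned cells) and 65.0% (without the first E16.5 library) in the third. With no filter on low counts falls outnumbered rises in the first (729 higher, 1029 lower, 41.5% rises) and in the third (1344 higher, 1463 lower, 47.9%), and the share in the first was 45.6% and 48.1% without the second E12.5 or the second E16.5 library and 49.8% with the replicate block. The upward share of the difference of changes moved from 46.4% to 60.6% (DESeq2), 60.5% (endothelial comparison cells) and 31.1% (thinned cells), and was 54.9% with DESeq2 size factors and 56.1% with no filter on low counts. Alternatives chosen after seeing the data gave 1434, 859, 2203 and 1818 calls without globin-rich cells and 1604, 868, 2311 and 2027 without epicardial cells with endothelial UMIs. The cause was not tested unless given.

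Replicate numbers did not pair the libraries (correlations of deviations 0.058, 0.057 and -0.04), and the replicate block gave 1507, 899 and 2309 stage calls. In the difference of changes, where the block is the library that holds both cell classes, the count was 1463 with stage in place of that block.

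The epicardial share at E12.5 (9.47%) was 8.81% with 5 marker UMIs, 4.31% with the thinned rule, 9.65% with mitochondrial ceilings, 9.22% with Tnnt2 under 500 CPM, 9.90% from 5000 UMIs, 9.11% without doublets and 4.47% of all cells. At E14.5 (5.63%) it was 4.66% with 5 marker UMIs, 2.21% with the thinned rule and 1.84% of all cells. At E16.5 it was 2.00% with the thinned rule and 1.01% of all cells, and at P3 0.237% of all cells. Single libraries ranged over 9.41% to 9.52%, 5.31% to 5.96% and 3.09% to 4.54%. The Mki67 or Top2a share at E12.5 (20.4%) was 20%, 18.4%, 20.1%, 21.0%, 20.2% and 19.9% under the first 6 of these choices in order, and 38.0% not thinned. At E14.5 (12.3%) it was 7.44% with the thinned rule, 7.53% without doublets and 19.9% not thinned, and at E16.5 (12.1%) 8.13%, 8.64% and 24.0%. Single libraries ranged over 20.3% to 20.5%, 9.41% to 15.1% and 10.53% to 13.6%.

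Directions turned for Fn1 from E14.5 to E16.5 (-0.13, thinned rule) and, in the difference of changes, for Hba-x (-0.34 thinned rule, -0.32 without globin-rich cells, -1.51 without the second and 10.65 without the first E16.5 library), Pdzk1ip1 (-0.21, thinned cells), and Bmp7 (-8.05) and Cdc20 (-0.81) without the first E16.5 library (2.64 and 1.28 without the second). With endothelial comparison cells they turned for Tbx18 (0.49), Bmp4 (-0.25), Mdk (0.64), Sfrp1 (0.92), Pdgfrb (0.02), Col1a2 (1.71), Col5a1 (0.97), Col6a1 (0.95), Col6a2 (0.50), Fbln2 (-0.93), Postn (0.25), Efemp2 (0.40), Serping1 (0.72), Anxa1 (0.09), Axl (0.75) and Dlk1 (0.70), and with mesenchymal ones for Tmsb4x (0.35) and Ier3 (1.11). Of the other values of listed genes, 211, 188, 227 and 331 lost significance with the direction kept in the 4 comparisons, against 1486, 1495, 2495 and 2665 that kept both.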
